A study of Mus musculus with 3 samples.

Results

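The genes described here are 29 genes of cholesterol synthesis, its control, and cholesterol transport, efflux and storage, listed by symbol, with no threshold on measured values, although earlier results of these data were known when the list was drawn up. All 29 were found once among the 28001 features of the files. They comprise 7 enzymes of the mevalonate steps, 11 enzymes of the later sterol steps, 5 genes that control synthesis and 6 genes that move or store cholesterol. Levels were read in single cells of the mouse nucleus accumbens, taken as a coronal dissection of 400 um. All 3 libraries form a single group: Thy1::ChR2 mice, in which the Thy1 promoter drives the light-gated channel channelrhodopsin-2 in neurons, labelled with FLiCRE while ChR2 was stimulated in the same region. FLiCRE is a reporter system that turns coinciding calcium and blue light into transcription. There is no unstimulated or unlabelled group, age and sex are not in the labels, and the labels do not say whether the libraries came from separate mice. Cell classes are therefore only set against each other within a library, and shifts shared by all classes of a library are taken out in the main tests. The p-values rest on how far class differences varied from library to library, judged over all classes in a fit. That variation may be technical.

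Cells make cholesterol from acetyl-CoA through mevalonate and isoprenoid units to squalene, which is closed to a ring and trimmed to cholesterol. When sterols are low, the carrier Scap takes the transcription factor precursors encoded by Srebf1 and Srebf2 to the Golgi for release, and the Insig proteins hold them back when sterols are high. Sterols in excess are sensed by LXR receptors, which raise efflux pumps such as Abca1 and Abcg1, while Soat1 turns free cholesterol into esters for storage. Cholesterol does not cross the blood-brain barrier in useful amounts, so brain cells make their own. Oligodendrocytes need it for myelin, astrocytes pass it to neurons on lipoproteins, and microglia and macrophages take it up with debris and must release or store it.

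The stretches around gene starts in which these regulators are known to act are shown first, because 3 members carry the letters searched for in them. RefSeq promoter sequences (250 bases before to 50 after the gene start, build GRCm38.p6) matched 23 of the 29 members. Fdps, Fdft1, Sqle, Abcg1, Npc1 and Stard4 were not matched. Capitals mark the match, and each run is written 5′ to 3′ on the gene's strand.
Hmgcs1 (chr13:119690101-119690400, plus strand): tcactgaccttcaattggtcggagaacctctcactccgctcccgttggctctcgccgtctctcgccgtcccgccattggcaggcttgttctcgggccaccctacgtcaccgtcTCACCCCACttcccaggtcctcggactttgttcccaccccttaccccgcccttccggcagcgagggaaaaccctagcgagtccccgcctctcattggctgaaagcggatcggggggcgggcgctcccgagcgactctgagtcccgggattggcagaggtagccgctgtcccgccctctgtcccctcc
Abca1 (chr4:53159846-53160145, minus strand): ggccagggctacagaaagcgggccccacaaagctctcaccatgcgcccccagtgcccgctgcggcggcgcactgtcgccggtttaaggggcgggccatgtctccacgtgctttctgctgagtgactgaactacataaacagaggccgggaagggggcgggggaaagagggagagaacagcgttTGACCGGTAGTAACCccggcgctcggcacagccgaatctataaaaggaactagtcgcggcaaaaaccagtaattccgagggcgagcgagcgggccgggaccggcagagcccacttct
Srebf1 (chr11:60210422-60210721, minus strand): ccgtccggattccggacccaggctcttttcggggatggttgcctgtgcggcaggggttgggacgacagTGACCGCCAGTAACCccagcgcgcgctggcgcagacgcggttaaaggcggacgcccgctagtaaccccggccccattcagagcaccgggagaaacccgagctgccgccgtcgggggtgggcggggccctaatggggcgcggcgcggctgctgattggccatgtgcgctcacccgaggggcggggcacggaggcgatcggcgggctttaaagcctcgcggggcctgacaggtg
The sterol response element was searched as TCACNCCAC on both strands. It occurred in 1 of 23 member genes (Hmgcs1, ENSMUSG00000093930, starting at -137 relative to the gene start) against 1.44% of all 27025 genes in the table. The LXR repeat was searched in a loose form, GGTNA followed by any 5 bases and GGTCA, on both strands. It occurred in Srebf1 (at -182, in 1 of 3 listed promoters) and Abca1 (at -67), so in 2 of 23 members against 0.226% of genes. Both matches read on the opposite strand of the gene. Its strict form, 2 copies of AGGTCA with any 4 bases between, is a special case of the loose one and was in 0 of 23 members and in 0.0148% of genes. The common promoter boxes CCAAT and GGGCGG were in 20 and 22 of 23 members, against 41.1% and 38.2% of genes. These forms were chosen with results in view, and a match describes letters only, not a used site. The counts come from the 3′ ends of transcripts and do not tell which start site was used.

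Libraries 1, 2 and 3 held 2350, 6079 and 1862 cells after filtering, with medians of 992.5, 2123 and 2705 UMIs (unique molecular tags, each counting 1 RNA molecule) per cell. Cells were put in a class when they carried at least 3 distinct markers of it and at least 2 times as many as of any other class. Of 10291 cells, 8843 were gated, 658 had too few markers and 790 carried too many markers of a second class for that ratio. Gated cells may still hold some markers of other classes. No member gene is a marker. The class names are shorthand for these gates. Oligodendrocyte precursors are called precursors. MHC-II macrophages are cells carrying any 3 or more of H2-Aa, H2-Ab1, H2-Eb1, Cd74, Lyz2, Ms4a7, Ccr2 and Plac8. That gate does not require both a class II gene and a myeloid gene, and it cannot tell macrophages, monocytes and dendritic cells apart. Neuron markers summed to between 10290 and 13510 CPM (UMIs relative to all UMIs of the class in that library, on the usual CPM scale) in neurons and 186 to 1113 in microglia. Microglia markers summed to 8110 to 12550 in microglia, 575 to 849 in MHC-II macrophages and 40.1 to 77.7 in neurons. MHC-II macrophage markers summed to 41030 to 51170 in their own class and 1746 to 4111 in microglia, with 1 of the 8 at 0 there. Precursor markers summed to 4123 to 5488 in precursors and 42.3 to 89.1 in oligodendrocytes, with none of the 9 at 0 in either. Gpr17, a marker of committed precursors that the gate does not use, was 44.2 times the mean of the other classes there. A small constant was added to both levels for that ratio. The precursor class can therefore hold committed as well as earlier precursors, and these were not separated. The part of other classes' RNA in the values below was not tested. Precursors were few: 24, 48 and 28 cells with 26420, 70121 and 90958 UMIs, so that 1 UMI in library 1 equals 37.9 CPM.

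Among neurons, the 3 macroglial classes, microglia and MHC-II macrophages, the mean sum of the synthesis genes was highest in the macroglia and lowest in microglia. The 18 enzymes together gave 1054 ± 345 CPM in oligodendrocytes (SD, n = 3 libraries, as for all such values), 1046 ± 613 in precursors and 949 ± 306 in astrocytes. Neurons had 559 ± 52.4, MHC-II macrophages 305 ± 130 and microglia 225 ± 62.1. In libraries 1, 2 and 3 the sum was 669, 1160 and 1334 CPM in oligodendrocytes, 595, 1117 and 1134 in astrocytes, 527, 620 and 531 in neurons and 153, 263 and 259 in microglia. Oligodendrocytes were above neurons in every library, and microglia were below all 4 of the neural classes in every library. Astrocytes were also above neurons in every library, although astrocytes of library 1 lay below the neurons of library 2, so the ranges overlapped. In precursors the sum was 341, 1455 and 1341 CPM, and the first value rests on 9 UMIs.

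The 3 efflux and storage genes had another order. Abca1, Abcg1 and Soat1 summed to 431 ± 71.2 CPM in astrocytes, 403 ± 119 in microglia and 223 ± 51.0 in MHC-II macrophages. Precursors had 158 ± 39.0, oligodendrocytes 107 ± 54.5, endothelial cells 107 ± 19.7, neurons 92.5 ± 10.2 and mural cells 48.2 ± 23.3. In libraries 1 to 3 the sum was 470, 348 and 474 CPM in astrocytes and 526, 392 and 290 in microglia, so these 2 classes overlapped. It was 274, 222 and 172 CPM in MHC-II macrophages, below both in each library and above the 99.9, 80.9 and 96.7 CPM of neurons. Astrocytes were high in both sums.

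**Figure D1:**
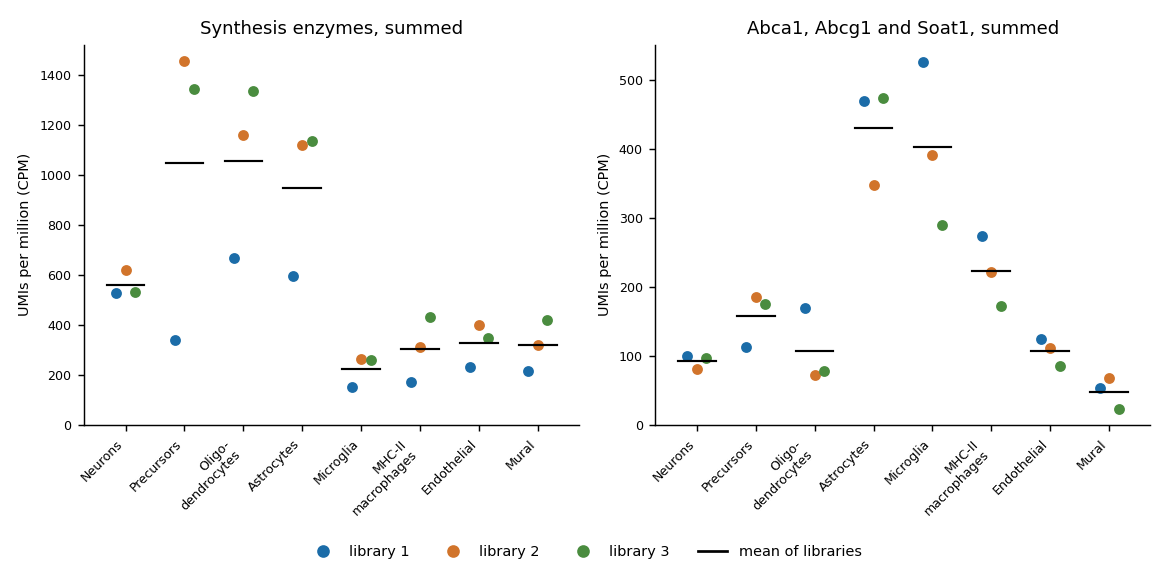
Summed levels of the 18 synthesis enzymes (left) and of Abca1, Abcg1 and Soat1 (right), in CPM, for 8 cell classes; points are the 3 libraries and lines their means. The left sum is highest in precursors, oligodendrocytes and astrocytes (means of 1046, 1054 and 949), and the right sum in astrocytes and microglia (431 and 403).

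Library 1, the shallowest, was low for synthesis. It gave the lowest of the 3 values for 14 of 18 enzymes in oligodendrocytes, 15 in precursors, 12 in astrocytes and 11 in neurons. With only cells of at least 1000 UMIs, its sum was still 597 CPM in oligodendrocytes against 1156 and 1333 in libraries 2 and 3. In astrocytes the same filter gave 589 against 1097 and 1123. The share of library depth in this difference was not tested beyond that filter. The tests carry the library as a block, so that each class is compared with another inside a library.

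In the test across all genes (edgeR's quasi-likelihood test on UMI sums per library and class, Benjamini-Hochberg adjusted p under 0.05), 21 of the 29 members passed the low-count filter. Of these, 16 were higher and 1 lower in oligodendrocytes than in neurons, where 30.2% and 29.5% of the 7591 genes tested were higher and lower (59.7% in all). All 11 enzymes tested were higher in oligodendrocytes, with a median log2 difference of 1.82 against 0.05 over all genes. Astrocytes had 15 members higher and 1 lower than neurons, beside 31.0% and 29.1% of genes (60.1% in all). Of the enzymes, 8 of 11 were higher in astrocytes, and their median was 1.06 against 0.01 over all genes. With the filter, the members' counts upward lay above the background in both comparisons, and their counts downward below it. Which enzymes passed the filter depends on their counts in these same class sums, so these shares and medians rest partly on it. Without the filter, 12 of 18 enzymes were higher in oligodendrocytes and 9 of 18 in astrocytes. Of 18779 genes, 39.4% and 39.1% were then called in either direction.

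Scaling matters for these counts. Levels in CPM are relative to all UMIs of a class, whereas the fold changes use TMM factors. With total UMIs in place of TMM, the median of all genes moved to -0.50 for oligodendrocytes over neurons and to -0.45 for astrocytes over neurons. The share of all calls that were higher fell from 50.5% to 31.1% and from 51.6% to 35.5%. The members then gave 13 higher and 4 lower in oligodendrocytes and 11 higher and 2 lower in astrocytes. Insig2 became lower in both (-0.84 and -0.75), and Srebf2 (-0.70) and Scap (-0.72) became lower in oligodendrocytes. Hmgcs1, Fdft1, Cyp51 and Scap lost their calls in astrocytes, and Acat2, Hmgcs1 and Fdft1 in oligodendrocytes.

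Fewer members passed in precursors. Against neurons, 6 of 21 members were higher and 0 lower, beside 12.8% and 20.1% of genes (32.9% in all). They were the enzymes Sqle, Fdps and Idi1 and the transport genes Abca1, Npc1 and Npc2. Against oligodendrocytes, 0 were higher and 5 lower, beside 9.25% and 15.0% (24.3% in all), which is about the background share and no result about the members. With total UMIs the share of higher calls among all genes went from 38.1% to 72.8% in this comparison, the median of all genes from -0.34 to 0.36, and the members gave 2 higher (Sqle 1.31, Abca1 1.67) and 2 lower (Sc5d and Npc2). Without the library block 2 members were called, and 3 or 2 without library 1 or 3. Among the 5, Sc5d and Npc2 kept their calls in every alternative that tested them. Fdft1 was lost without library 2 (-1.20, adjusted p = 0.242), Msmo1 without library 1 or 3 (-1.16, adjusted p = 0.0794, and -0.91, adjusted p = 0.337), and Npc1 without any one of the 3 libraries (-0.59, -0.91 and -1.56, adjusted p = 0.376, 0.227 and 0.0610).

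Microglia and MHC-II macrophages were each compared with the mean of precursors, oligodendrocytes, astrocytes and neurons (taken on the log2 scale). Microglia had 5 members higher, all of them transport, efflux or storage genes, beside 20.1% of genes, and 9 lower, beside 15.0% (35.1% in all). Their count of higher members is close to the background share and, as a count, is no result about the members. The lower ones were 8 of the 11 enzymes and Srebf2, and the median of the enzymes was -1.63 against -0.20 over all genes. That median is the same with Sqle, which had 0 UMIs in microglia, set at its bound. Without the low-count filter, 8 of 18 enzymes were lower in microglia, beside 17.6% of genes called in either direction. MHC-II macrophages had 4 higher, beside 19.0%, and 6 lower, beside 14.4% (33.4% in all). The count of higher members is at the background share and is no result about the members. It comprised Npc2, Soat1, Abca1 and Abcg1. The 6 lower ones were enzymes, whose median was -1.57 against -0.23 over all genes. Without the filter, 6 of 18 enzymes were lower in MHC-II macrophages, beside 16.2% of genes called in either direction. With total UMIs the share of higher calls among all genes fell from 57.3% to 41.6% for microglia and from 57.0% to 40.1% for MHC-II macrophages, and the members gave 4 higher and 11 lower, and 2 higher and 7 lower. Leaving out library 2 or 3 left 8 or 9 members called in microglia, and 6 in MHC-II macrophages either way.

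Among the mevalonate enzymes, the glial rise was strongest for Idi1, Fdps and Pmvk in oligodendrocytes. Hmgcs1, which makes HMG-CoA for the pathway, read 96.7, 122 and 110 CPM in the neurons of libraries 1 to 3 and 115, 146 and 166 in oligodendrocytes. Oligodendrocytes were higher in each library, though the ranges overlap, and the log2 difference was 0.94 ± 0.26 (SE; adjusted p = 0.00138). In astrocytes Hmgcs1 read 114, 110.5 and 172 CPM, higher than neurons by 0.75 ± 0.26 (adjusted p = 0.0112), a call lost in 8 of 14 alternatives. In precursors it read 189, 185 and 176 CPM, above every neuronal value, but the difference of 0.49 ± 0.36 did not pass (adjusted p = 0.328). Without library 3, the oligodendrocyte and astrocyte calls were lost (0.75, adjusted p = 0.0803, and 0.50, adjusted p = 0.257), and without library 1 the astrocyte call (0.61, adjusted p = 0.0772).

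Idi1, which interconverts the isoprenoid building blocks, read 11.6, 27.7 and 26.9 CPM in neurons and 21.2, 96.1 and 114 in oligodendrocytes. It was higher in oligodendrocytes in each library, by 2.33 ± 0.30 (adjusted p = 2.45e-10). Precursors had 37.9, 57.0 and 110 CPM and were 1.45 ± 0.49 above neurons (adjusted p = 0.0169). Astrocytes had 13.3, 63.7 and 42.7 and were 1.31 ± 0.31 above (adjusted p = 0.000229). The precursor call was lost without library 3 (0.96, adjusted p = 0.497) and the astrocyte call without library 2 (0.86, adjusted p = 0.103).

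Fdps, the farnesyl diphosphate synthase, separated the 2 main macroglial classes. It read 44.6, 96.1 and 144 CPM in oligodendrocytes and 9.50, 38.4 and 24.2 in astrocytes, without overlap. Neurons had 39.9, 40.9 and 34.0 CPM. Oligodendrocytes were 1.83 ± 0.32 above neurons (adjusted p = 8.45e-07) and astrocytes did not pass against neurons (-0.16 ± 0.36, adjusted p = 0.721). Precursors had 0, 200 and 176 CPM and were called higher than neurons (1.69 ± 0.45, adjusted p = 0.00183), with library 1 going the other way on 0 UMIs. That call was lost without library 2 (1.24, adjusted p = 0.127) or library 3 (1.47, adjusted p = 0.0817).

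Pmvk, a kinase of the mevalonate steps, had the most even values, with 39.9, 39.2 and 32.3 CPM in neurons, 89.1, 86.1 and 86.8 in oligodendrocytes and 57.0, 82.4 and 58.3 in astrocytes. Both glial classes lay above all neurons, by 1.82 ± 0.29 (adjusted p = 1.89e-07) and 1.33 ± 0.30 (adjusted p = 0.000111). Acat2, an acetoacetyl-CoA thiolase at the start of the pathway, read 34.0, 59.2 and 61.1 CPM in oligodendrocytes and 35.7, 55.4 and 40.4 in neurons. These overlap, and the call of 0.81 ± 0.30 (adjusted p = 0.0159) was lost in 7 of 12 alternatives, among them without library 2 (0.73, adjusted p = 0.121). Acat2 has a close copy beside it in the mouse genome, Acat3, and how reads shared by both were counted is not given in the sources used here.

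Among the sterol steps, Msmo1 stood out in astrocytes. Msmo1, a sterol methyl oxidase, read 116, 374 and 408 CPM in astrocytes, 82.8, 209 and 209 in oligodendrocytes and 52.5, 83.5 and 55.6 in neurons. Every astrocyte value was above every neuronal one, and the difference was 2.61 ± 0.29 (adjusted p = 9.45e-12). Oligodendrocytes were 1.90 ± 0.29 above neurons (adjusted p = 5.98e-08). Astrocytes exceeded oligodendrocytes in each library, by 0.70 ± 0.28 (adjusted p = 0.0382). That last call was lost without library 1, 2 or 3 (0.78, 0.74 and 0.63, adjusted p = 0.0699, 0.0842 and 0.217).

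Sqle, the squalene epoxidase, read 15.8, 27.8 and 22.3 CPM in neurons, 12.7, 54.6 and 76.4 in oligodendrocytes and 30.4, 60.9 and 49.8 in astrocytes. Astrocytes were above all neurons, by 1.57 ± 0.34 (adjusted p = 4.42e-05), and oligodendrocytes were called higher by 1.66 ± 0.33 (adjusted p = 1.16e-05) although their library 1 value was below the neurons' on this scale. Precursors had 0, 157 and 165 CPM, and the difference from neurons was 2.25 ± 0.47 (adjusted p = 7.84e-05), kept in all 14 alternatives. The 0 in library 1 stands for no UMI among 26420, where 1 UMI would be 37.9 CPM.

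Ebp, a sterol isomerase, also separated oligodendrocytes from astrocytes. It read 38.2, 93.8 and 65.1 CPM in oligodendrocytes, above the 25.2, 25.3 and 21.7 of neurons, by 2.05 ± 0.32 (adjusted p = 8.62e-08). Astrocytes had 20.9, 20.6 and 8.54 CPM, with no call against neurons (-0.03 ± 0.39, adjusted p = 0.957) and a lower level than oligodendrocytes (-2.08 ± 0.38, adjusted p = 4.78e-06). Microglia had 54.8, 37.5 and 30.5 CPM and MHC-II macrophages 25.7, 41.6 and 101. Neither was called against the mean of the 4 neural classes (0.45 ± 0.47, adjusted p = 0.497, and 0.87 ± 0.50, adjusted p = 0.176).

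Sc5d, the lathosterol desaturase, was highest in oligodendrocytes. It read 44.6, 72.3 and 93.3 CPM in oligodendrocytes, 26.6, 47.7 and 38.4 in astrocytes and 15.8, 24.4 and 26.2 in neurons. Both glial classes were above neurons in each library, by 2.21 ± 0.29 (adjusted p = 5.03e-10) and 1.25 ± 0.31 (adjusted p = 0.000344). Precursors had 0, 14.3 and 10.99 CPM from 2 UMIs in all, a level 7.18 times lower than in oligodendrocytes, with a 95% counting interval of 1.99 to 59.3 times (exact Poisson, counting error only). Of the 3 enzymes called lower in precursors, Sc5d alone kept its call in every alternative that tested it.

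Cyp51, the lanosterol demethylase, read 29.7, 56.9 and 74.8 CPM in oligodendrocytes, 28.5, 35.6 and 38.4 in astrocytes and 21.0, 23.9 and 24.3 in neurons. Both glial classes lay above all neurons, by 1.80 ± 0.31 (adjusted p = 4.29e-07) and 1.06 ± 0.33 (adjusted p = 0.00400). Fdft1, the squalene synthase, was less clear: it read 88.3, 55.8 and 59.2 CPM in neurons, 53.1, 71.5 and 98.1 in oligodendrocytes and 57.0, 88.0 and 99.6 in astrocytes. In library 1 both glial classes were below neurons on this scale. The calls of 0.72 ± 0.29 (adjusted p = 0.0283) in oligodendrocytes and 0.77 ± 0.29 (adjusted p = 0.0198) in astrocytes were each lost in 8 of 13 alternatives, among them without library 2 (0.43, adjusted p = 0.358, and 0.44, adjusted p = 0.354) or library 3 (0.34, adjusted p = 0.508, and 0.50, adjusted p = 0.297).

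**Figure D2:**
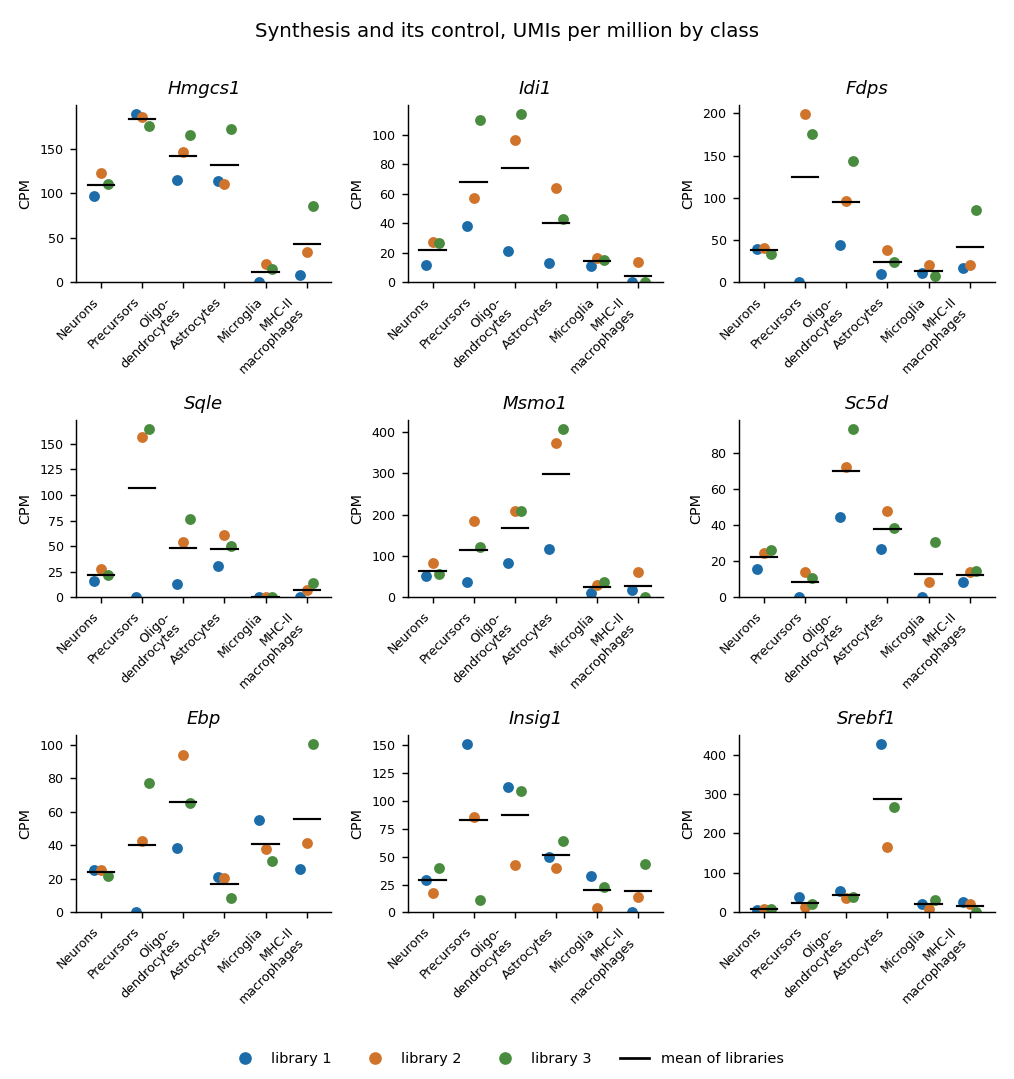
Levels of 7 synthesis enzymes and of the control genes Insig1 and Srebf1, in CPM, by cell class; points are the 3 libraries and lines their means, and each panel has its own axis. Msmo1 and Srebf1 are highest in astrocytes (means of 299 and 287), Sc5d and Ebp highest in oligodendrocytes, and Sqle is at 0 in microglia.

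The microglia were nearly without UMIs for the enzymes around squalene. Sqle had 0 UMIs among 462220 (a count of 0 allows up to 6.49 CPM, taking 3 counts as the limit), at least 8.73-fold lower than the geometric mean of the 4 neural classes, 56.6 CPM. Fdft1 had 1 UMI, 29.6 times lower, with a counting interval of 5.32 to 1170 times. Hmgcs1 read 0, 20.9 and 15.3 CPM, below every value of the neural classes, with a log2 difference of -2.99 ± 0.47 (adjusted p = 1.77e-07). Msmo1 read 10.96, 29.2 and 38.1 CPM (-2.19 ± 0.44, adjusted p = 3.88e-05). Acat2, Idi1, Fdps and Cyp51 were lower by log2 differences of -1.63, -1.52, -1.79 and -1.63. Without library 2, Acat2 (-1.63, adjusted p = 0.133), Idi1 (-1.49, adjusted p = 0.151) and Fdps (-2.33, adjusted p = 0.0563) were no longer called, nor Idi1 (-1.41, adjusted p = 0.145) and Fdps (-1.54, adjusted p = 0.0787) without library 3. Pmvk (-0.81), Ebp (0.45) and Sc5d (-0.88) did not pass.

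MHC-II macrophages rested on fewer UMIs (330580). Idi1 and Sqle had 2 UMIs each, 9.02 times (interval 2.497 to 74.5) and 9.36 times (2.59 to 77.3) below the neural mean. Acat2 and Fdft1 had 3 UMIs each, 6.34 times (2.17 to 30.7) and 7.06 times (2.42 to 34.2) below. Hmgcs1 read 8.58, 34.6 and 86.2 CPM (-1.57 ± 0.42, adjusted p = 0.00202) and Msmo1 17.1, 62.4 and 0 CPM (-1.82 ± 0.46, adjusted p = 0.00127). The spread between libraries was wide for both, and Msmo1 alone of these 6 kept its call in every alternative. Calls were lost without library 2 for Acat2 (-1.83, adjusted p = 0.151) and Sqle (-2.63, adjusted p = 0.0951), and without library 3 for Idi1 (-2.15, adjusted p = 0.0735) and Fdft1 (-2.21, adjusted p = 0.117).

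Among the control genes, Srebf1 marked astrocytes. It encodes a transcription factor best known for raising fatty acid synthesis genes, and it read 428, 165 and 267 CPM in astrocytes against 6.31, 8.15 and 8.09 in neurons. The log2 difference of 5.43 ± 0.34 (adjusted p = 9.68e-23) was kept in all 14 alternatives. Oligodendrocytes had 55.2, 36.9 and 40.2 CPM, also above all neurons (2.87 ± 0.34, adjusted p = 2.87e-11) and below all astrocytes, which were 2.56 ± 0.31 higher (adjusted p = 7.37e-11). Microglia had 21.9, 8.34 and 30.5 CPM and MHC-II macrophages 25.7, 20.8 and 0. Its relative Srebf2, the usual activator of the cholesterol enzymes, did not show this: it read 69.4, 52.1 and 75.4 CPM in neurons and 76.0, 40.2 and 78.2 in astrocytes (0.43 ± 0.30, adjusted p = 0.219), and 74.3, 26.1 and 33.0 in oligodendrocytes (-0.13 ± 0.31, adjusted p = 0.734). Srebf2 was lower in microglia, at 10.96, 12.5 and 22.9 CPM (-1.67 ± 0.55, adjusted p = 0.0134), a call lost without library 2 (-1.68, adjusted p = 0.0797).

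Insig1, the Insig gene that is itself induced by the pathway's factors, was higher in oligodendrocytes at 112, 42.3 and 109 CPM than in neurons at 29.4, 17.7 and 39.8. Every oligodendrocyte value was above every neuronal one (2.12 ± 0.33, adjusted p = 1.30e-07). Astrocytes had 49.4, 40.2 and 64.0 CPM, also above all neurons (1.35 ± 0.35, adjusted p = 0.000659). Insig2 was not called in any of the 10 comparisons and read 67.3, 109 and 100 CPM in neurons, 29.7, 70.7 and 55.5 in oligodendrocytes and 43.7, 67.4 and 54.0 in astrocytes. Scap, the carrier, read 81.7, 52.4 and 62.6 CPM in astrocytes, above the 49.4, 47.2 and 42.4 of neurons (0.97 ± 0.29, adjusted p = 0.00320). That call was lost without library 1 (0.70, adjusted p = 0.0719) and with total UMIs. Scap in oligodendrocytes, at 31.8, 19.99 and 33.0 CPM, lay below astrocytes, which were higher by 1.13 ± 0.33 (adjusted p = 0.00371).

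The lysosomal exporters Npc1 and Npc2, which hand cholesterol out of the lysosome, were low in neurons and high elsewhere. Npc2 read 1490, 1071 and 1060 CPM in microglia and 1312, 1122 and 1221 in MHC-II macrophages. It read 505, 453 and 451 CPM in oligodendrocytes, 374, 306 and 258 in astrocytes, 151, 257 and 88.0 in precursors and 56.8, 85.9 and 43.3 in neurons. Both myeloid classes lay above all others without overlap, at 2.91 ± 0.19 (adjusted p = 8.88e-21) and 2.97 ± 0.20 (adjusted p = 2.17e-20) over the neural mean. Oligodendrocytes were 3.46 ± 0.27 (adjusted p = 1.83e-17) and astrocytes 2.79 ± 0.27 (adjusted p = 4.64e-14) above neurons. These 4 calls were kept in all 14 alternatives. Precursors were 1.21 ± 0.38 above neurons (adjusted p = 0.00925), a call lost without library 2 (0.81, adjusted p = 0.270).

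Npc1 had a different top class. It read 199.5, 146 and 139 CPM in oligodendrocytes, 81.7, 89.9 and 65.4 in astrocytes, 65.8, 117 and 191 in microglia and 85.8, 76.2 and 28.7 in MHC-II macrophages. Neurons, at 23.1, 21.0 and 26.9 CPM, were below all of these. The difference from neurons was 3.31 ± 0.30 in oligodendrocytes (adjusted p = 1.94e-15), 2.24 ± 0.30 in astrocytes (adjusted p = 1.83e-09) and 2.30 ± 0.44 in precursors (adjusted p = 2.24e-05), which read 37.9, 114 and 187 CPM. Over the neural mean, microglia were higher by 0.97 ± 0.30 (adjusted p = 0.00756), and MHC-II macrophages did not pass (0.15 ± 0.38, adjusted p = 0.812). The microglial call was lost without library 2 (0.92, adjusted p = 0.0796) or library 3 (0.62, adjusted p = 0.286), and with total UMIs (0.68, adjusted p = 0.0573).

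Abca1, the pump that loads cholesterol onto lipoproteins, was high in astrocytes first and in microglia next. It read 371, 277 and 403 CPM in astrocytes, 241, 213 and 175 in microglia, 129, 83.1 and 57.5 in MHC-II macrophages and 114, 114 and 66.0 in precursors. Oligodendrocytes had 23.3, 34.6 and 26.5 CPM and neurons 13.7, 16.3 and 14.9. Astrocytes were above the other 5 classes named in every library. The difference from neurons was 4.99 ± 0.31 (adjusted p = 2.70e-22) in astrocytes and 2.40 ± 0.50 (adjusted p = 9.65e-05) in precursors, both kept in all 14 alternatives. Microglia were 2.04 ± 0.27 above the neural mean (adjusted p = 1.85e-09), although that mean includes astrocytes. For MHC-II macrophages the difference of 0.93 ± 0.35 (adjusted p = 0.0360) was lost in 11 of 14 alternatives, among them without library 1 (0.33, adjusted p = 0.648), library 2 (0.99, adjusted p = 0.0832) or library 3 (0.97, adjusted p = 0.0872).

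Abcg1, the partner pump, was lowest in the class where Abca1 was highest. It read 3.80, 6.55 and 4.27 CPM in astrocytes, from 2, 7 and 3 UMIs, against 72.5, 44.99 and 63.4 in neurons and 146, 33.1 and 49.1 in oligodendrocytes. Astrocytes were below all neurons, with a log2 difference of -2.96 ± 0.46 (adjusted p = 5.23e-08), and below all oligodendrocytes (-3.63 ± 0.46, adjusted p = 4.85e-10). Microglia had 186, 117 and 68.6 CPM and MHC-II macrophages 51.5, 62.4 and 86.2. Over the neural mean, which the astrocytes pull down, microglia were higher by 2.15 ± 0.35 (adjusted p = 6.27e-07). MHC-II macrophages were called at 1.26 ± 0.46 (adjusted p = 0.0291). This second call was lost in 11 of 14 alternatives, among them without library 1 (1.33, adjusted p = 0.0624), library 2 (1.02, adjusted p = 0.243) or library 3 (1.10, adjusted p = 0.153), and the values overlap those of neurons.

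Soat1, which esterifies cholesterol for storage, was high in astrocytes and in both myeloid classes. It read 95.03, 64.6 and 66.8 CPM in astrocytes, 98.6, 62.5 and 45.8 in microglia and 94.3, 76.2 and 28.7 in MHC-II macrophages. Neurons had 13.7, 19.6 and 18.4 CPM, and oligodendrocytes 0, 4.61 and 3.22, the lowest of these classes. Astrocytes were 2.47 ± 0.32 above neurons (adjusted p = 4.79e-10) and oligodendrocytes below them (-1.86 ± 0.50, adjusted p = 0.000988). Microglia and MHC-II macrophages were 2.16 ± 0.44 (adjusted p = 3.62e-05) and 2.30 ± 0.47 (adjusted p = 5.28e-05) above the neural mean. The 4 calls were kept in every alternative that tested Soat1. Stard4, a cytosolic sterol carrier, was too low to test between these classes, with 14.7, 13.2 and 12.6 CPM in neurons and 0, 7.69 and 9.65 in oligodendrocytes.

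**Figure D3:**
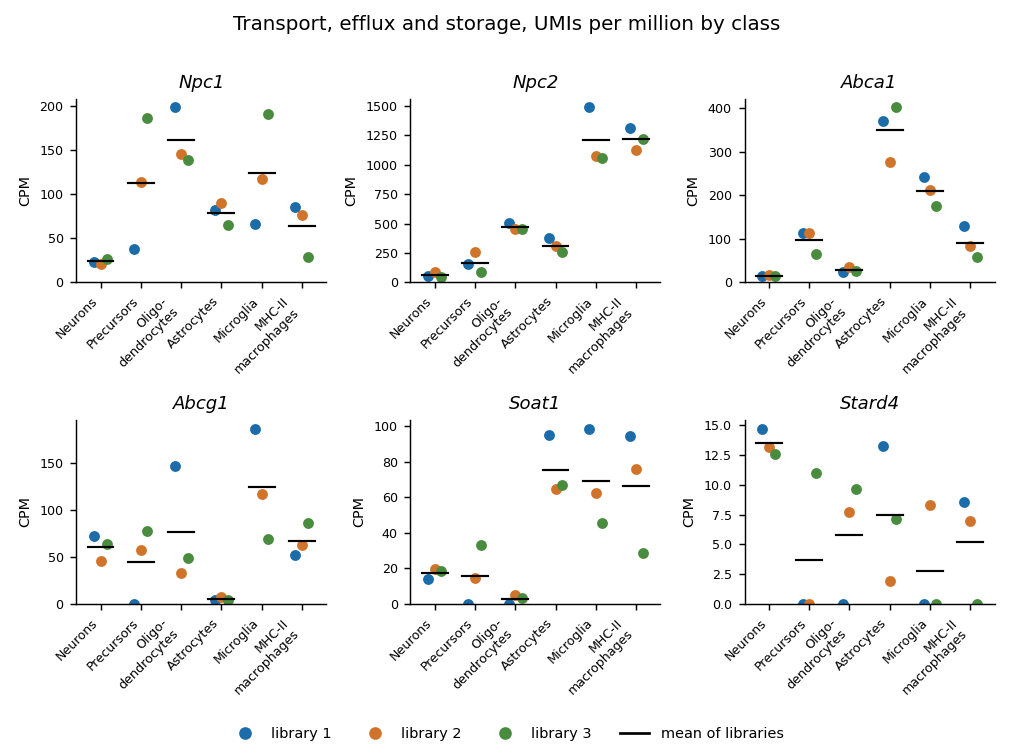
Levels of Npc1, Npc2, Abca1, Abcg1, Soat1 and Stard4, in CPM, by cell class; points are the 3 libraries and lines their means, and each panel has its own axis. Npc2 is highest in microglia and MHC-II macrophages (means of 1207 and 1218), Abca1 in astrocytes (350), and Abcg1 is lowest in astrocytes (4.87).

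A pair of direct comparisons, added after the data had been seen, bears on these differences between glia. Astrocytes had 5 members higher and 7 lower than oligodendrocytes, beside 21.7% and 18.3% of genes (40.0% in all). The higher count is about the background share and, as a count, is no result about the members. Higher were Soat1 (4.33 ± 0.46), Abca1 (3.52 ± 0.30), Srebf1, Scap and Msmo1. Lower were Abcg1, Ebp, Fdps (-1.99 ± 0.36), Npc1 (-1.07 ± 0.29), Idi1 (-1.02 ± 0.31), Sc5d (-0.96 ± 0.31) and Npc2 (-0.68 ± 0.25). Abcg1 was lower by a log2 difference of -3.63 and Ebp of -2.08. Without library 3, 7 were called, and the calls of Idi1 (-0.68, adjusted p = 0.274) and Npc2 (-0.54, adjusted p = 0.277) were among those lost. Npc2 was lost without library 2 as well (-0.63, adjusted p = 0.0924).

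Microglia had 2 members higher and 13 lower than astrocytes, beside 18% and 21.2% of genes (39.1% in all). Higher were Abcg1 (4.50 ± 0.51) and Npc2 (1.99 ± 0.26). Abca1 was lower (-0.73 ± 0.30, adjusted p = 0.0409), a call lost without library 3 (-0.57, adjusted p = 0.312), and Soat1 did not differ beyond the spread (-0.14 ± 0.41, adjusted p = 0.829). The other 12 lower members were 8 enzymes, Insig1, Srebf1, Srebf2 and Scap. Hmgcs1 (-3.20 ± 0.49), Msmo1 (-3.50 ± 0.45), Srebf1 (-3.84 ± 0.48), Srebf2 (-1.95 ± 0.58) and Scap (-1.91 ± 0.53) kept their calls in every alternative that tested them. So did Fdft1, with 1 UMI and a level 39.0 times lower (counting interval 7.01 to 1542), and Sqle, at least 7.78-fold lower. Without the library block 9 members were called, and without library 3 also 9. Calls were lost without library 1 for Pmvk (-1.07, adjusted p = 0.0714), Cyp51 (-1.50, adjusted p = 0.0604) and Sc5d (-1.45, adjusted p = 0.0568), and without library 2 for Pmvk (-0.93), Idi1 (-1.20), Sc5d (-1.004) and Insig1 (-1.12). Idi1 (-1.66, adjusted p = 0.0813) and Insig1 (-1.78, adjusted p = 0.0863) were lost without library 3 as well.

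Between MHC-II macrophages and microglia, 0 of 21 members were called by edgeR, beside 6.09% of genes. Before adjustment 1 member had a p under 0.05 in edgeR and 2 had in DESeq2, which also called 0. The nearest was Abca1, with 129, 83.1 and 57.5 CPM against 241, 213 and 175, lower in each library (-1.12 ± 0.39, adjusted p = 0.0732). With total UMIs it was called (-1.17, adjusted p = 0.0404). In libraries 1 to 3 the 18 enzymes together had 20, 45 and 30 UMIs in MHC-II macrophages and 14, 63 and 34 in microglia.

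**Figure D4:**
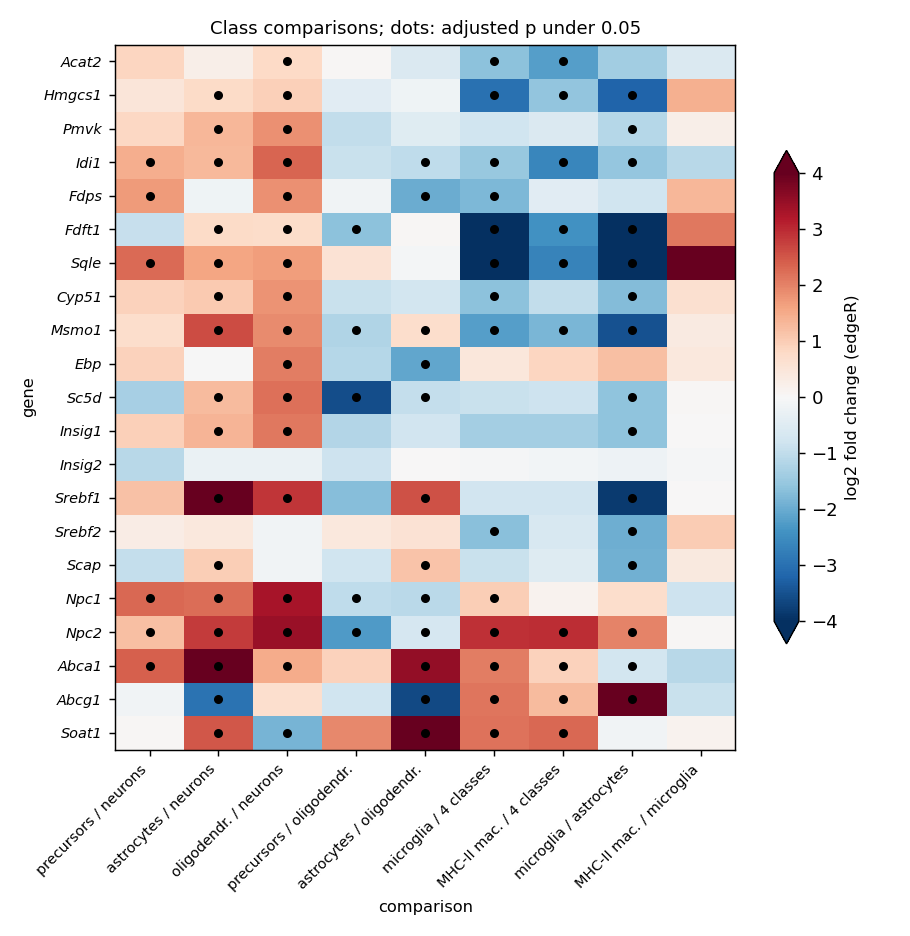
Log2 fold change from edgeR for the 21 members that passed the low-count filter (rows) in 9 class comparisons (columns); red is higher in the first class named, blue lower, colours stop at 4 and -4, and dots mark an adjusted p under 0.05. Enzymes (upper rows) are red in oligodendrocytes over neurons. In microglia over the mean of 4 classes the enzymes other than Ebp are blue, not all with a dot, and the transport genes (lower rows) are red.

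Within neurons, the spiny neurons that carry D1 or D2 dopamine receptors were compared in a fit of their own. The enzymes summed to 427, 591 and 492 CPM in D1 neurons and 400, 535 and 399 in D2 neurons. No member of the 25 tested was called by edgeR, beside 3.44% of 9435 genes. Before adjustment 3 had a p under 0.05 in edgeR (Fdft1 0.46 ± 0.15, Dhcr7 0.52 ± 0.20 and Sqle 0.51 ± 0.23) and 0 with DESeq2. Neurons with neither gate had 688, 748 and 704 CPM, above both spiny types in every library. With at most 1 marker of another class the sums were 618, 586 and 530 CPM, and library 2 then lay below its D2 neurons (592). That setting also allowed spiny neurons no marker of the other spiny type, and neurons failing it were counted with neither gate. In library 2 that group went from 1021 to 1502 cells, so it was not the same set of neurons. Without that limit on markers, Hmgcs1 alone read 155, 174 and 176 CPM in neurons with neither gate. It read 42.7, 112 and 83.3 in D1 and 68.4, 86.5 and 76.4 in D2 neurons. These last levels are a description without a test.

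The vascular classes were low in synthesis, with 327 ± 84.5 CPM for the enzymes in endothelial cells and 319 ± 102 in mural cells. Abca1 read 62.3, 89.8 and 62.3 CPM in endothelial cells, and Npc2 254, 219 and 238. Stard4 read 26.0, 26.4 and 23.4 CPM in endothelial cells, above each of its values in neurons. Fibroblasts and T cells had at least 10 cells in 2 libraries only, with 0 and 374 CPM and 215 and 332 CPM for the enzymes.

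Members outside the fit of all classes were described without the low-count filter. These 8 were Mvk, Mvd, Lss, Tm7sf2, Nsdhl, Hsd17b7, Dhcr7 and Stard4. Nsdhl, a sterol dehydrogenase, was then called higher than in neurons in astrocytes (2.08 ± 0.36, adjusted p = 5.75e-08), oligodendrocytes (1.39 ± 0.37, adjusted p = 0.000749) and precursors (2.13 ± 0.66, adjusted p = 0.00968). It read 22.8, 39.3 and 19.9 CPM in astrocytes and 6.31, 9.56 and 8.09 in neurons, without overlap. Mvk, the mevalonate kinase, was called higher in oligodendrocytes (1.75 ± 0.33), which read 23.3, 29.2 and 31.4 CPM against 8.41, 11.1 and 10.7 in neurons. Mvd, which decarboxylates mevalonate diphosphate, was called higher in astrocytes (1.48 ± 0.34) and oligodendrocytes (0.89 ± 0.35), and Dhcr7 in astrocytes (0.79 ± 0.31). Dhcr7 was also lower in microglia than in astrocytes (-1.58 ± 0.59). Lss, Hsd17b7, Tm7sf2 and Stard4 were not called against neurons in any of these 3 classes. Tm7sf2 was lowest of the enzymes in UMIs, at 8.41, 5.94 and 2.91 CPM in neurons and 0 UMIs in microglia and in MHC-II macrophages, where a count of 0 allows up to 6.49 and 9.08 CPM by the same limit of 3 counts.

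Other sterol-handling genes, from a list of 30 chosen with earlier results known, were mixed. Of 20 tested, 7 were higher and 9 lower in astrocytes than in neurons, beside 31.0% and 29.1% of genes. In oligodendrocytes 5 were higher and 11 lower, beside 30.2% and 29.5%. Lcat, which esterifies cholesterol on lipoproteins, read 57.0, 95.5 and 31.3 CPM in astrocytes and 2.10, 2.62 and 0.647 in neurons (5.43 ± 0.47, adjusted p = 2.71e-16). Nr1h3, an LXR receptor gene, was higher in astrocytes by 2.52 ± 0.56 and Cyp7b1, an oxysterol hydroxylase, by 2.34 ± 0.37, while Vldlr, a lipoprotein receptor gene, was lower (-2.03 ± 0.41). Cyp46a1, which makes the sterol by which neurons export cholesterol, read 197, 166 and 168.5 CPM in neurons and 8.49, 15.4 and 7.24 in oligodendrocytes (-3.60 ± 0.37, adjusted p = 7.66e-14). In oligodendrocytes the receptor gene Lrp1 was lower (-2.49 ± 0.33), as was Lrp8 (-2.28 ± 0.50), and Lcat was higher (2.30 ± 0.62).

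In the myeloid classes, Mylip, which marks lipoprotein receptors for breakdown and is raised by LXR, read 110, 246 and 214 CPM in microglia and 25.7, 27.7 and 14.4 in MHC-II macrophages. Microglia were 5.38 ± 0.35 above the neural mean (adjusted p = 5.65e-22), and MHC-II macrophages below microglia (-2.95 ± 0.53, adjusted p = 4.36e-05). Ch25h, which makes 25-hydroxycholesterol, read 54.8, 41.7 and 53.4 CPM in microglia and at most 1.90 in single libraries of astrocytes, oligodendrocytes, precursors and neurons. Lipa, the lysosomal esterase, read 85.8, 76.2 and 158 CPM in MHC-II macrophages and 4.20, 8.55 and 7.76 in neurons, and was 3.43 ± 0.45 above the neural mean (adjusted p = 1.45e-09). Of the 20 tested, 6 were higher and 3 lower in microglia, beside 20.1% and 15.0% of genes, and 5 and 3 in MHC-II macrophages, beside 19.0% and 14.4%. The counts of lower genes are at the background share in both. Lrp1 was lower in MHC-II macrophages than in microglia (-1.50 ± 0.37).

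Of 7 fatty acid synthesis genes tested, 6 were higher and 0 lower in oligodendrocytes than in neurons, beside 30.2% and 29.5% of genes. In astrocytes 4 were higher and 0 lower, beside 31.0% and 29.1%, and in precursors 2 and 0, beside 12.8% and 20.1%. Against the neural mean, 0 were higher and 5 lower in microglia and in MHC-II macrophages alike, where 15.0% and 14.4% of genes were lower. Scd2, a desaturase, read 2330, 1826 and 1391 CPM in oligodendrocytes, 2115, 1365 and 2255 in astrocytes and 325, 385 and 327 in neurons. The glial classes were 2.99 ± 0.27 and 3.01 ± 0.27 above neurons, without overlap. Scd2 read 110, 146 and 137 CPM in microglia (-2.56 ± 0.29 against the neural mean) and 68.6, 138.5 and 71.8 in MHC-II macrophages (-2.98 ± 0.32). Scd1 was higher by 3.95 ± 0.38 in oligodendrocytes and 3.18 ± 0.39 in astrocytes. Me1, which supplies NADPH, was 3.59 ± 0.31 above neurons in astrocytes and 2.71 ± 0.49 in precursors. Fasn, the fatty acid synthase, had 4 UMIs in all in microglia and 2 in MHC-II macrophages, against 94.6 to 164 CPM in astrocytes.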

How the data were processed

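The deposited files hold raw UMI counts per gene and cell barcode for 3 libraries made with a 10x Genomics 3' v2 kit, per the labels, and produced by the authors with Cell Ranger 3.0 on mm10, per the submitters' processing notes. The barcode suffix names a library and could not be tied to a labelled replicate number. Libraries 1 and 2 shared 13 barcodes, 1 and 3 shared 7, and 2 and 3 shared 22.

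Of 11625 deposited barcodes, 10291 passed a minimum of 300 genes and a ceiling of 20% for UMIs from mitochondrial genes. No doublet caller was run, and cells whose markers of a second class exceeded the ratio below were left out, so gated cells can carry some markers of other classes. The gate (at least 3 distinct markers of a class and at least 2 times those of any other) was set after the data had been seen, and 549 gated cells lay at its edge. D1 and D2 neurons needed 2 markers. The members and all lists were chosen with earlier results of these data known.

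UMI counts were summed per library and class (at least 10 cells) and tested with edgeR 4.0.16 in R 4.3.3: TMM factors, filterByExpr, quasi-likelihood test, library as a block because both sums of a pair come from the same library, and Benjamini-Hochberg adjustment over all genes tested at 0.05. All 10 classes shared a fit of 7591 genes, and D1 and D2 neurons had their own of 9435. Fibroblasts and T cells of library 3 had too few cells and were dropped. Standard errors are the log2 fold change over the root of F. Intervals are exact Poisson at 95% and cover counting error only. Floors for a count of 0 take a fixed 3 counts summed over the class, and the at-least folds use them. The exact upper limit is higher, 7.98 CPM in place of 6.49 for Sqle in microglia. The procedure was also run on simulated counts with a fixed spread, no library differences other than depth, and few changed genes. That run does not cover the wide differences between classes and libraries in these data. Members are given per library where they passed in at least 1 comparison with the same sign in all 3 libraries, or were the lowest or highest of their role group, and the remaining members described were picked after their values were seen. From other lists up to 4 genes per comparison with the largest called difference of one sign in all libraries were eligible, and Lipa, Ch25h, Scd2 and Fasn are shown for some comparisons beyond that. Alternatives were DESeq2 1.42.0, total UMIs, no filter, no block, another prior, other gates and leaving out each library. Sequences are from RefSeq.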

Additional observations from a re-analysis of the deposited data

How the results depend on the processing

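No called value changed direction. Of 1260 recomputed values of 95 called member values, 1099 kept their call and 161 lost it. Counts of called members moved by more than 1.5 times as follows. Without the replicate block, precursors over oligodendrocytes went from 5 to 2 and microglia over astrocytes from 15 to 9, and the block moved no other count that far. With at most 1 marker of another class, where 11 members were tested, the counts were 2 for precursors over oligodendrocytes, 2 for precursors over neurons (from 6), 9 for astrocytes over neurons (from 16), 10 for oligodendrocytes over neurons (from 17), 2 for MHC-II macrophages over the neural mean (from 10), 8 for microglia over it (from 14), 7 for astrocytes over oligodendrocytes (from 12) and 7 for microglia over astrocytes. With cells of at least 1000 UMIs, precursors over oligodendrocytes had 2. With all cells assigned by class profile, an alternative chosen after seeing the data, precursors had 9 over oligodendrocytes and 10 over neurons. MHC-II macrophages over microglia went from 0 to 1 with total UMIs, with only the classes compared (4 members tested), with the stricter gate, with at most 1 marker of another class and with cells of at least 1000 UMIs. Leaving out each library in turn gave 2 to 4 for precursors over oligodendrocytes, 6 to 8 for MHC-II macrophages and 8 to 14 for microglia over the neural mean, 7 to 13 for astrocytes over oligodendrocytes and 9 to 12 for microglia over astrocytes. Beyond fewer members tested, the cause was not tested. The fit of only the classes compared does not apply to D1 and D2 neurons, which have their own fit. The summed synthesis levels of neurons, precursors, oligodendrocytes, astrocytes, microglia and MHC-II macrophages moved by less than 1 SD. Leaving out a library cannot move a mean of 3 by that much, so only the other settings bear on this. The SD of precursors was wide (613 CPM). Their sum went from 1046 to 1469 CPM with cells of at least 1000 UMIs, where library 1 had 9 cells and dropped out. For neurons in neither spiny gate the sum was 713 CPM. It went to 621 with the stricter gate and 578 with at most 1 marker of another class. It was 631 without the deepest cells and 755 with cells of at least 1000 UMIs. Each moved by more than the SD of 31.0. The stricter gate and the limit of 1 marker also tightened the spiny gates and moved spiny neurons into this group. It held 1021 cells of library 2 in the main result, 2015 with the stricter gate and 1502 with at most 1 marker. Precursors of library 1 had 26420 UMIs, where 1 UMI is 37.9 CPM.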
